A study of Oryctolagus cuniculus with 54 samples.

Results

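The 150 genes described here had a higher mean level in rabbit lung at F20, F23, F28, T31 and T35 than at T37 and T42. They were chosen by this difference, so the lower level at T37 and T42 is not a result. The level of a gene was log2(CPM + 1), where CPM is its count divided by the total count of the library, times 1000000, and it was averaged over the libraries of a time point in sequencing run 3. Of 29587 genes in the count table, 7509 had a mean level of at least 2.6 at each of the 5 earlier time points. These 7509 genes were ranked by their gap, the lowest of the 5 earlier means minus the higher of the means at T37 and T42, and the 150 with the largest gap were taken.

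RNA was extracted from lungs of New Zealand White rabbits, from the right lung or, at F20 and F23, from whole lungs, and 3′ end libraries were sequenced in 3 runs (54 libraries of 45 animals). Per the methods, the pups of a time point came from different dams, and whether time points shared dams is not stated. Fetuses were taken by C-section on gestational day 20 (F20, 4 animals), 23 (F23, 4), 25 (F25, 3), 27 (F27, 3), 28 (F28, 3) and 29 (F29, 3). Term pups were born naturally on day 31 and stayed with their mothers in room air, and they were sampled as newborns (T31, 6 animals), 4 days after birth on day 35 (T35, 3), 6 days after birth on day 37 (T37, 4) and 11 days after birth on day 42 (T42, 3). Preterm pups were delivered by C-section on day 28, kept in incubators at the oxygen level of room air and fed a milk replacer, and they were sampled at 1 h (P0, 3 animals), 3 days (P3, 3) and 7 days (P7, 3). P7 pups therefore had the same age after conception as T35 pups but had breathed for longer, and they differed from them in delivery, feeding and rearing as well. These influences cannot be told apart.

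Before birth the lung first forms its airways by branching (the pseudoglandular phase), then widens them and lays down capillaries beside them (canalicular), and then forms thin-walled sacs (saccular). Alveolarisation divides these sacs into small gas-exchanging units and continues after birth, and in a pup born preterm it has to proceed in a lung that already breathes air. The question addressed here is whether genes whose level was lower in the older term lung also had a lower level in preterm pups at P3 and P7.

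Genes are listed in the table by Ensembl identifier, and 0 of 29587 identifiers could be matched to a gene symbol. The functions of the 150 genes are therefore not described, and the labelled tissue could not be checked against marker genes of lung cell types. All values come from RNA of lung tissue with its cell types mixed, in which fewer cells of a type and less RNA per cell cannot be told apart. The libraries held 5771693 to 8073755 counts with a median of 7090332. T37 and T42 were sequenced in run 3 and in no other run, P0 and P3 in run 2 alone, and F27 and F29 in run 1 alone. For this reason levels are compared within a run or in a model with a run term.

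The gap that defines the list was small for most of the genes. It was 1.46 on the log2 scale (2.74-fold) for the first-ranked gene, 1.04 for the second, 0.93 for the third and 0.85 for the fourth. By rank 10 it was 0.43, by rank 50 0.25 and by rank 100 0.18. The median was 0.20, or 1.15-fold, and 2 genes had a gap above 1, 7 above 0.5 and 31 above 0.3. The list ends where gaps no longer separate neighbours. The last 2 genes inside the list had gaps of 0.1403 (from 3.33 down to 3.19) and 0.1398 (3.84 to 3.70), and the next 2 genes outside it had 0.1396 (10.10 to 9.96) and 0.138 (8.18 to 8.04). Of the 7509 ranked genes, 428 had a gap above 0, and the median gap of the ranked genes was -0.51.

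A gap between means does not imply separate groups of animals. In 27 of the 150 genes each of the 15 libraries of run 3 from F20, F23, F28, T31 and T35 was above each of the 7 libraries from T37 and T42, and 30 of the 7509 ranked genes had this pattern. In the other 123 genes at least 1 late library reached into the range of the earlier ones. The 150 genes spanned mean levels from 5.79 to 4635 CPM in run 3 with a median of 64.5 CPM, against 47.3 CPM for the ranked genes. Together they took 4.89% of the counts of run 3, and the 4 most abundant of them took 1.48%.

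The genes did not share a profile before T35. Their highest mean among the 5 earlier time points was at F28 in 65 genes, at F23 in 34, at F20 in 27, at T31 in 19 and at T35 in 5. The lowest of the 5 was at T35 in 60 genes, at T31 in 40 and at F20 in 37, and at F28 or F23 in 7 and 6. T35 was already below F28 in 133 of the 150 genes, as it was in 68.2% of the ranked genes. The median difference T35 minus F28 in run 3 was -0.23 over the 150 genes and -0.14 over the ranked genes. Between T37 and T42 the genes were nearly level, with a median difference of -0.01, 84 being higher at T37 and 66 at T42.

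The median level of the 150 genes in each library of run 3 shows the same course. It was 6.06 ± 0.05 (SD, n = 4) at F20, 6.24 ± 0.11 (n = 4) at F23, 6.39 in the single F25 library, 6.27 ± 0.10 (n = 2) at F28, 6.02 ± 0.23 (n = 3) at T31 and 6.01 ± 0.01 (n = 2) at T35. It was 5.56 ± 0.03 (n = 4) at T37 and 5.53 ± 0.11 (n = 3) at T42. The highest late library, at 5.61, was below the lowest earlier one, a T31 library at 5.84, which the choice of the genes favours. The share of all counts taken by the 150 genes was 4.66% to 6.23% in the 15 earlier libraries and 3.50% to 3.98% in the 7 late ones.

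**Figure D1:**
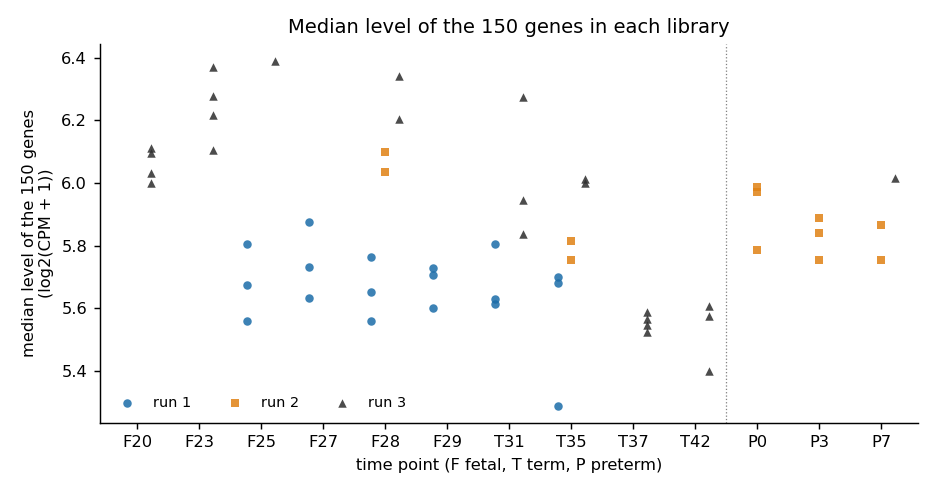
Median level of the 150 genes in each of the 54 libraries, as log2(CPM + 1), by time point on the horizontal axis, with 1 point per library and its shape and colour giving the sequencing run. The axis does not start at 0. In run 3 the T37 and T42 libraries lie between 5.40 and 5.61 and the P7 library at 6.02, while the run 1 libraries of F25 to T35 lie between 5.29 and 5.88.

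The P7 library of run 3 was the preterm library that could be set beside T37 and T42 within a run. Its median over the 150 genes was 6.02, close to the 6.01 of T35 and above the 5.40 to 5.61 of the 7 late libraries. Gene by gene, P7 minus T35 had a median of -0.03, with 65 genes higher and 85 lower in P7. Against T37 the median was 0.33 with 137 of 150 genes higher in P7, and against T42 it was 0.38 with 138 higher. Over the 7509 ranked genes these medians were 0.05 for T35, -0.08 for T37 and 0.01 for T42. Of the ranked genes, 56.4% were higher in P7 than at T35, 41.9% than at T37 and 51.5% than at T42.

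For 120 of the 150 genes the P7 library was nearer to the T35 mean than to the mean of T37 and T42, as it was for 54.7% of the ranked genes. It was above all 7 late libraries in 102 genes, within their range in 44 and below all of them in 4. Among the ranked genes 20.5% were above all 7. Of the 10 genes of highest rank, 9 were above. The P7 level also lay below that of F28, with a median difference of -0.30, and below that of T31 by a median of 0.11 log2 units. F28, T31, T35, T37 and T42 all entered the choice of the genes, and a single P7 animal was available in this run, so these comparisons are descriptions without a test.

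**Figure D2:**
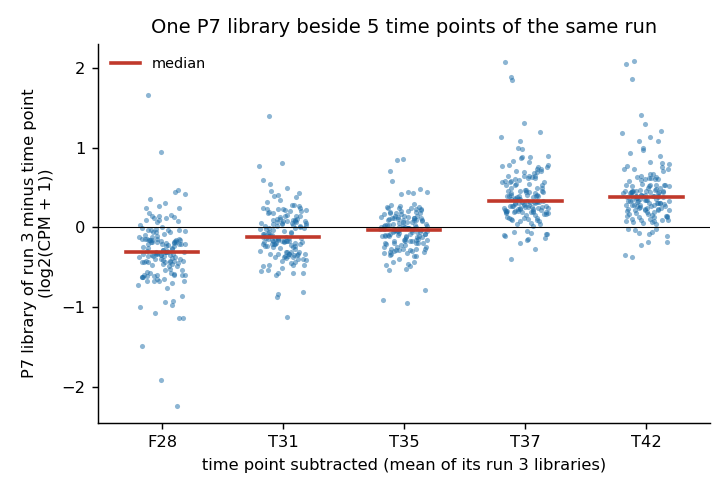
Difference between the single P7 library of run 3 and the mean of each of 5 time points of the same run, in log2(CPM + 1), with 1 point per gene for the 150 genes and a bar at the median. The medians are -0.30 against F28, -0.11 against T31, -0.03 against T35, 0.33 against T37 and 0.38 against T42.

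In run 2 the preterm time points were sequenced together with F28 and T35. The median level of the 150 genes was 5.91 ± 0.11 (SD, n = 3) at P0, 5.83 ± 0.07 (n = 3) at P3 and 5.81 ± 0.08 (n = 2) at P7, beside 6.07 ± 0.05 (n = 2) at F28 and 5.78 ± 0.04 (n = 2) at T35. The P3 libraries, at 5.75 to 5.89, and the P7 libraries, at 5.75 and 5.87, overlapped with the P0 libraries at 5.79 to 5.99 and with the T35 libraries at 5.75 and 5.81. Gene by gene, P3 minus T35 had a median of 0.12 (103 of 150 higher in P3) and P7 minus T35 of 0.14 (109 higher), against medians of 0.09 and 0.12 over the ranked genes. Of the ranked genes, 65.2% were higher in P3 than at T35 and 69.0% in P7, so the 150 genes were near that share. The 2 T35 animals of run 2 are those whose run 3 libraries entered the choice of the genes, so this comparison is a description. Whether the preterm pups were below or above T37 and T42 cannot be read from run 2.

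The change over the first preterm week was tested with edgeR's quasi-likelihood test on 21 libraries with a run term. Neither P0, P3 nor P7 had been used to choose the genes. The run term rested partly on F28 and T31 libraries of run 3 that had been used. Comparisons with P7, which has a run 3 library, were therefore not wholly separate from the choice. A gene was called at a fold change above 2 and a Benjamini-Hochberg adjusted p of at most 0.05 over the 14544 genes tested. The gap that chose the 150 genes had a median of 1.15-fold, so a fall of that size could not be called. From P0 to P7, 2 of the 150 genes fell and 1 rose. Of all genes tested, 0.536% fell and 2.5% rose. By adjusted p alone 5 fell and 1 rose, beside 1.09% and 2.77% of all genes. From P0 to P3, 2 of the 150 fell and 0 rose, against 0.172% and 1.04% of all genes. DESeq2 called 2 of the 150 lower and 0 higher at P3, beside 74 lower and 238 higher of all 14544 genes. In edgeR's test 21 of the 150 had an unadjusted p under 0.05, as had 12.5% of all genes. Both comparisons share the P0 animals. From P3 to P7, 0 of the 150 were called in either direction by edgeR and by DESeq2. Of all genes, edgeR called 0% lower and 0.00688% higher, and DESeq2 called 4 genes lower and 16 higher. An unadjusted p under 0.05 in edgeR's test was found in 6 of the 150 genes and in 4.96% of all genes.

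The counts of genes that fell rest on few animals. From P0 to P7 the count was 1 without P0 animal 1, without P0 animal 3 or without P7 animal 1, and 4 without P0 animal 4. Of all genes, 45, 68, 57 and 70 were then called lower, in this order, against 78 with all animals. From P0 to P3 the count was 0 without P0 animal 1 or without P3 animal 3, and 1 without P0 animal 3, P3 animal 1 or P3 animal 2. Of all genes, 10, 10, 13, 13 and 7 were then called lower, in this order, against 25 with all animals. Without a run term in the model both counts among the 150 were 0. Of all genes, 52 were then called lower at P7 and 5 at P3, against 78 and 25 with the run term. Run 2 alone gave 5 of the 150 at P7 and 3 at P3, when 162 and 95 of all genes were called lower.

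Most of the 150 genes had a fold change slightly below 0 that the test did not call. The log2 fold change from P0 to P7 was below 0 in 121 of them with a median of -0.16 and a range from -1.65 to 1.24. Over all genes tested the median was 0.00 and 49.9% were below 0. The median of the 150 genes was -0.07 without a run term and -0.18 in run 2 alone. From P0 to P3 the log2 fold change was below 0 in 107 genes with a median of -0.14. Over all genes the median was 0.01 and 48.5% were below 0. From P3 to P7 it was below 0 in 94 genes with a median of -0.05, against -0.01 and 51.1% below 0 over all genes, and this median was 0.05 without a run term and 0.05 with a replicate block. In the run 2 levels, P7 minus P3 had a median of 0.01 with 79 genes higher and 71 lower. An unadjusted p under 0.05 was found in 29 of the 150 genes (19.3%) from P0 to P7, and in 15.4% of all genes.

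The animals of P0 and P7 in run 2 did not overlap in 42 genes that were lower at P7 and in 14 that were higher, where 15.4% and 23.9% of the ranked genes had these patterns. For P3 and P0 the counts were 39 lower and 8 higher, beside 12.6% and 14.3% of the ranked genes. In percent, 28% of the 150 genes were lower without overlap at P7 and 26% at P3. Genes of the same animals are not independent, so these shares were given no test.

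**Figure D3:**
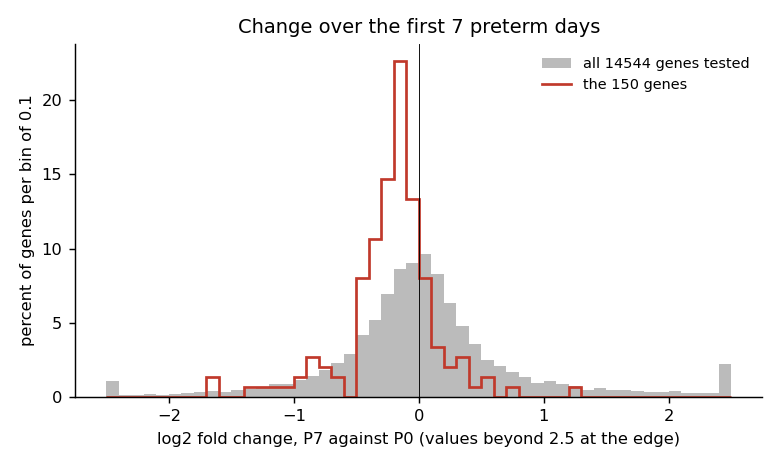
Distribution of the log2 fold change from P0 to P7 (edgeR with a run term) in bins of 0.1, as percent of the genes, for all 14544 genes tested (grey) and for the 150 genes (red line), with values beyond 2.5 placed at the edge. The 150 genes centre on -0.16 and all genes on 0.00.

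ENSOCUG00000025851, of rank 122, fell in both preterm comparisons. In run 2 its level was 128, 137 and 171 CPM in the P0 animals, 65.0, 70.8 and 83.3 CPM at P3, and 64.6 and 70.5 CPM at P7. The P0 animals lay above all others of the preterm course, and P3 and P7 overlapped. Its log2 fold change was -1.21 ± 0.19 (SE, edgeR adjusted p = 0.000512) at P7 and -1.02 ± 0.18 (adjusted p = 0.00552) at P3. The F28 animals of run 2 had 110 and 123 CPM and the T35 animals 47.3 and 63.4 CPM, so the preterm animals at P3 and P7 were above T35.

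In fetal and term animals the same gene was lower at T35 than at F28 in every run, without overlap. The F28 and T35 libraries of runs 2 and 3 are repeat libraries of run 1 animals, so the runs are not independent. In run 3 the gene had 156 and 205 CPM at F28, 87.2 to 104 CPM at T31, 59.0 and 81.9 CPM at T35, 53.7 to 60.7 CPM at T37 and 50.4 to 73.9 CPM at T42. T35, T37 and T42 overlapped, and the P7 library at 81.1 CPM lay at the upper end of T35. In run 1 the level ran from 79.5 to 98.1 CPM at F25 to 25.6 to 35.3 CPM at T35. The gene thus met the rule with T35 barely above the late time points.

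ENSOCUG00000021647, of rank 114, fell from P0 to P7. Its levels in run 2 were 13.3, 22.2 and 25.8 CPM at P0, 13.5 to 15.2 CPM at P3, and 6.18 and 11.4 CPM at P7. All P7 animals of run 2 were below all P0 animals, and 1 P0 animal was just below the P3 range. The log2 fold change was -1.34 ± 0.34 (SE, edgeR adjusted p = 0.0317), and the call was lost without P0 animal 1, P0 animal 3, P7 animal 1 or P7 animal 3, without a run term and with a replicate block. The gene differed strongly between runs, at 1.97 to 6.50 CPM in the libraries of run 1 and 7.31 to 45.8 CPM in run 3.

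ENSOCUG00000015621, of rank 79, rose from P0 to P7. In run 2 it had 23.1, 24.7 and 26.6 CPM at P0, 24.7, 36.6 and 43.3 CPM at P3, and 48.2 and 58.7 CPM at P7. All P7 animals were above all P0 and P3 animals, and 1 P3 animal was within the P0 range. The log2 fold change was 1.24 ± 0.24 (SE, edgeR adjusted p = 0.00448) at P7, and at P3 it was 0.47 ± 0.23 with an adjusted p of 0.404. In run 3 the P7 library had 94.4 CPM, above the 51.8 and 63.8 CPM of T35 and the 15.9 to 32.5 CPM of T37 and T42. The single P7 library of run 3 was thus above all T35, T37 and T42 libraries of that run. T37 and T42 were below T35 but not below all earlier libraries. F28 at 27.4 and 31.4 CPM and the lowest T31 library at 28.3 CPM were within the late range.

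The genes of highest rank are given by their rank, and they were picked for description after their values had been seen. The first-ranked gene had 104 and 106 CPM at F28 in run 3, 30.0, 42.2 and 70.0 CPM at T31, 74.7 and 86.9 CPM at T35, 7.79 to 26.3 CPM at T37 and 13.7 to 19.6 CPM at T42. Every T37 and T42 animal was below every earlier one. The P7 library had 67.7 CPM, just below T35 and above the late animals. In run 2 the gene had 102 to 122 CPM at P0, 43.6 to 62.6 CPM at P3, 36.5 and 76.8 CPM at P7, and 73.8 and 75.2 CPM at T35. Its log2 fold change was -1.14 ± 0.45 at P3 (edgeR adjusted p = 0.278) and -0.80 ± 0.49 at P7 (adjusted p = 0.482), so neither was called.

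The second-ranked gene had a wide spread among animals of a time point. In run 3 it had 24.7, 100 and 202 CPM at T31, 75.6 and 121 CPM at T35, 16.8 to 72.6 CPM at T37 and 16.7 to 62.6 CPM at T42, and 116 CPM in the P7 library. The lowest T31 animal, 1 F23 animal (27.6 CPM) and 2 F20 animals (60.9 and 70.6 CPM) were within the late range. The P0 to P7 change was -0.24 ± 0.58 (edgeR adjusted p = 0.911).

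The third-ranked gene was the other gene that fell from P0 to P3. It had 104, 178 and 283 CPM at P0, 39.2, 44.7 and 56.7 CPM at P3, 56.7 and 56.8 CPM at P7, and 58.5 and 67.5 CPM at T35 in run 2. The P0 animals were above all P3, P7 and T35 animals. The log2 fold change was -2.03 ± 0.47 at P3 (SE, edgeR adjusted p = 0.0308), and at P7 it was -1.65 ± 0.49 with an adjusted p of 0.0696, which misses the threshold. In run 3 the gene had 328 and 386 CPM at F28, 55.6 and 70.6 CPM at T35 and 24.1 to 46.1 CPM at T37 and T42, with the P7 library at 75.2 CPM. The F28 animals were far above T35, and T35 was above the late animals by less.

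The fourth-ranked gene had 23.8 and 29.7 CPM at T35 in run 3, 10.8 to 15.4 CPM at T37, 5.81 to 10.7 CPM at T42 and 19.2 CPM in the P7 library. The P7 library was between the ranges of T35 and T37. In run 2 its level was 28.1, 39.0 and 42.6 CPM at P0, 16.3 to 28.0 CPM at P3, and 16.7 and 17.2 CPM at P7. The change from P0 to P7 was -1.0 ± 0.43 (edgeR adjusted p = 0.256) and was not called.

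**Figure D4:**
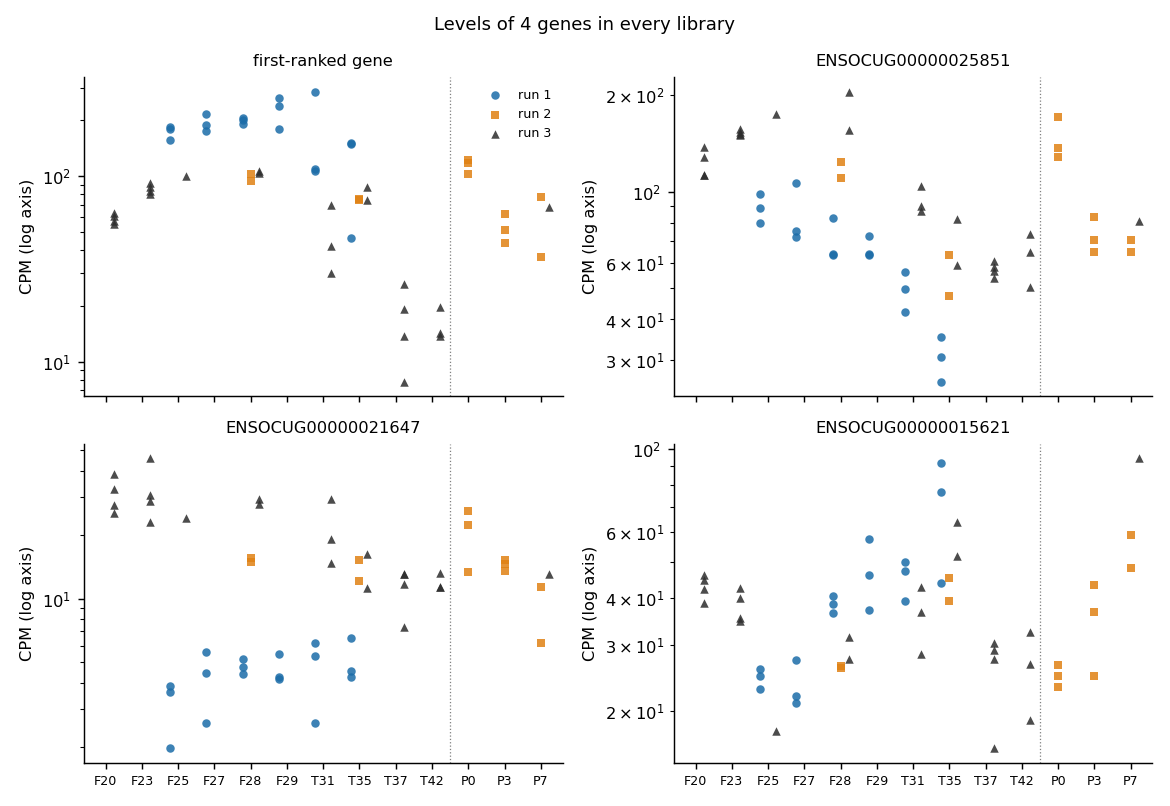
Level in CPM on a log axis of the first-ranked gene, ENSOCUG00000025851, ENSOCUG00000021647 and ENSOCUG00000015621 in every library, with 1 point per library, time points on the horizontal axis and shape and colour giving the run. The P7 library of run 3 is at 67.7, 81.1, 13.1 and 94.4 CPM, and ENSOCUG00000021647 lies at 1.97 to 6.50 CPM in run 1 and at 7.31 CPM or more in run 3.

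Run 1 covered late gestation and the first days after term birth with 3 animals each at F25, F27, F28, F29, T31 and T35. F25, F27 and F29 had not been used to choose the genes. The median level of the 150 genes was 5.68 ± 0.12 (SD, n = 3) at F25, 5.75 ± 0.12 at F27, 5.66 ± 0.10 at F28, 5.68 ± 0.07 at F29, 5.68 ± 0.11 at T31 and 5.56 ± 0.23 at T35. These groups overlapped, with 1 T35 library at 5.29 lowest. It came from the T35 animal that had no run 3 library and so did not enter the choice of the genes. The T35 animals that did were at 5.68 and 5.70 in run 1. Per gene, the range of the 6 means had a median of 0.43 log2 units in the 150 genes and 0.55 in the ranked genes.

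From F25 to F29, 0 of the 150 genes were called lower and 2 rose in edgeR's quasi-likelihood test over the 18 libraries, beside 2.99% lower and 4.42% higher of 14600 genes tested. DESeq2 called 1 of the 150 lower and 2 higher, beside 432 lower and 746 higher of all 14600 genes. In edgeR's test 21 of the 150 had an unadjusted p under 0.05, beside 26.7% of all genes. The median log2 fold change was 0.05, against -0.04 over all genes. The genes that rose were ENSOCUG00000015621, from 22.9 to 25.8 CPM at F25 to 37.2 to 57.5 CPM at F29 (1.02 ± 0.23, edgeR adjusted p = 0.00611), and the second-ranked gene, from 19.9 to 45.3 CPM to 69.6 to 137 CPM (1.59 ± 0.49, adjusted p = 0.0392). Their F25 and F29 animals did not overlap. The count of 2 became 0 without F25 animal 3 or F29 animal 2, and 1 without F25 animal 18, F29 animal 7 or F29 animal 11. Of all genes, 662, 541, 470, 479 and 605 were then called higher, in this order, against 645 with all animals. The count of 0 became 1 without F29 animal 11, when 395 of all genes were called lower, against 437.

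From F29 to T31, across term birth, 0 of the 150 genes were called in either direction by edgeR and by DESeq2. Of all 14600 genes tested, edgeR called 0.00685% lower and 0.0342% higher, and DESeq2 called 50 genes lower and 88 higher. An unadjusted p under 0.05 in edgeR's test was found in 18 of the 150 genes, and in 14.4% of all genes. Without T31 animal 15 edgeR called 3 of the 150 lower and 1 higher, when 147 and 232 of all genes were called. The median log2 fold change of the 150 genes was 0.03.

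In the same animals the 150 genes differed between runs by about as much as between T35 and the late time points. The 5 animals sequenced in runs 1 and 3 had a higher level of these genes in run 3, with a median difference of 0.39 to 0.65 log2 units and 105 to 121 of the 150 genes higher. The ranked genes had median differences of -0.05 to -0.00 in these animals. The F25 animal, which had not been used to choose the genes, had 0.65 with 121 genes higher. In the 4 animals of runs 1 and 2 the median was 0.14 to 0.40 higher in run 2, and in the 3 animals of runs 2 and 3 it was 0.23 to 0.30 higher in run 3.

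Run 2 against run 1 in the same 4 animals was tested with edgeR's quasi-likelihood test with the animal as a block, a test added after the data had been seen. Of the 150 genes 24 were called higher in run 2 and 2 lower, beside 7.6% higher and 12.5% lower of 13583 genes tested. These are repeat libraries, so the test measures the difference between libraries of an animal. The median level in the T37 and T42 libraries of run 3, 5.40 to 5.61, was within the range of the T35 libraries of run 1, 5.29 to 5.70. The 5.29 is from the T35 animal without a run 3 library, and the other T35 libraries of run 1 had 5.68 and 5.70.

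For the 150 genes the median of T35 minus the mean of T37 and T42 in run 3 was 0.39, and the median of run 3 minus run 1 in the same T35 animals was 0.41. The difference between runs was the larger in 74 of the 150 genes. In 79 genes T35 in run 1 was below the mean of T37 and T42 in run 3. The T35 mean of run 1 includes the animal without a run 3 library. All libraries of T37 and T42 were from run 3, as were the libraries of the 5 earlier time points that chose the genes, so the comparison was made within a run, and no other run could repeat it. The part of library preparation or sequencing in the level of these genes was not tested.

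**Figure D5:**
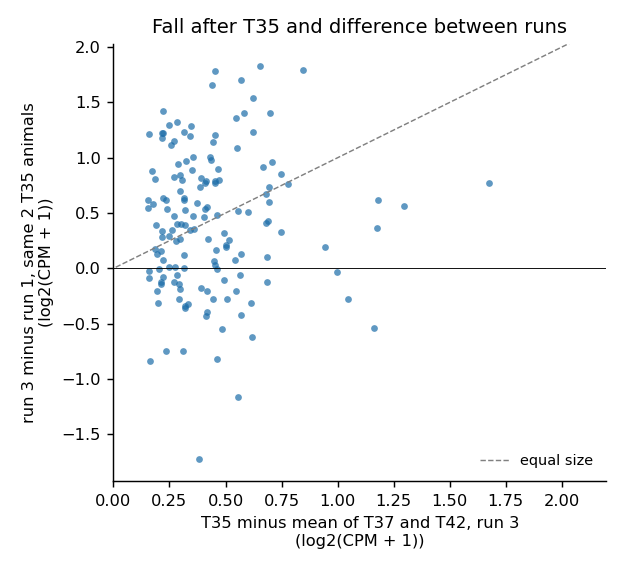
Difference between T35 and the mean of T37 and T42 in run 3 (horizontal axis) and run 3 minus run 1 in the same 2 T35 animals (vertical axis), both in log2(CPM + 1). Each point is 1 of the 150 genes, and a dashed line marks where both are equal. The first-ranked gene, at 2.31 and -0.88, lies beyond the right edge and is not drawn. The medians over all 150 genes are 0.39 and 0.41, and 74 points lie above the line.

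Scaling by total counts set part of the list. TMM factors, which adjust for a few genes taking many counts, raised T35 by 0.16 log2 units, T31 by 0.14 and T42 by 0.07, and lowered F20 and F23 by 0.14 each, so that T35 moved by 0.13 relative to the late time points. With TMM-scaled CPM 87 of the 150 genes stayed in the list, including all of ranks 1 to 10, and 137 of the 150 kept a gap above 0. The number of genes in which all 15 earlier libraries were above all 7 late ones was 23, and 15 of the 27 genes counted above were among the 87. For description, edgeR's test of T37 and T42 against T35 in run 3, which uses libraries that entered the choice of the genes, called 6 of the 150 lower and 0 higher, beside 0.618% and 0.924% of all genes.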

How the data were processed

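The deposited table holds whole-number read counts per Ensembl gene. Per the methods, the authors made QuantSeq FWD 3′ libraries, trimmed reads with BBduk, aligned them with STAR to OryCun2.0 and counted them with HTSeq. A custom script treated reads in unannotated 3′ UTRs. Tool versions, the strand setting and whether the table includes the added reads are not given in the sources used here. 0 columns lacked a sample, and 0 libraries were identical.

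Levels were log2(CPM + 1) with totals over all genes. Groups were compared with edgeR 4.0.16 (R 4.3.3) by the quasi-likelihood test with TMM, Benjamini-Hochberg adjustment over all genes tested, and a filter that kept a gene reaching 0.5 CPM in 3 or more fitted libraries. The preterm fit used 21 libraries, 1 per animal (run 2 first, then run 3, then run 1), with a run term. The run 1 fit used 18 libraries and the T35 contrast 22. The procedures were tested on simulated data. For P7 against P0, 31 of 67 genes given a log2 change of 1.5 were called, and 48 of 63 given a change of 3. Alternatives were limma 3.58.1 (voom), DESeq2 1.42.0, DESeq2 size factors, no low-count filter, no run term, run 2 alone, a replicate block and leave-one-out. Adjusted p alone and the test between runs were added after seeing the data.

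The 150 genes and the gene lists were chosen with earlier results of these data known. No identifier matched a symbol in a RefSeq table of mOryCun1.1, so planned pathway and marker lists could not be applied and no sequences are shown. By the rule for this case, at most 2 identifiers per direction were named among genes called in P7 against P0 whose animals did not overlap in run 2. Replicates are pups from different dams. Libraries had no molecular identifiers, so reads can be copies of 1 molecule. Figures were drawn with matplotlib 3.10.9.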

Additional observations from a re-analysis of the deposited data

Results flagged for a closer look

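A library far from the others was looked for in 24 sets of 4 libraries, each a described gene or the median of the 150 genes at F20, F23 or T37 in run 3. ENSOCUG00000015621 at T37 in run 3 had a level of 4.08 log2(CPM + 1) in animal 12, against 4.83 to 4.97 in the other T37 animals, and the gap to the nearest was 0.848 of the whole range. Chance gives about 1 such library in 20 groups. The difference was not tested further.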

How the results depend on the processing

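Of the 150 genes, 2 fell from P0 to P7, and this count was 0 without a run term, 5 in run 2 alone, 5 by adjusted p alone and 1 to 4 when single animals were left out, while 1 rose under each of these settings. From P0 to P3, 2 fell, and the count was 0 without a run term and 0 to 2 with single animals left out. Of all genes, 36 to 70 fell at P7 and 7 to 23 at P3 with single animals left out, against 78 and 25. From F25 to F29 the count lower was 0, 1 with DESeq2 and 0 to 1 with animals left out. The count higher was 2, and 0 to 2 with animals left out. Of all genes, 308 to 395 were called lower and 470 to 662 higher with animals left out, against 437 and 645. From F29 to T31 leaving out animals gave 0 to 3 lower and 0 to 1 higher, against 0 and 0. Of all genes, 0 to 147 were then called lower and 0 to 232 higher, against 1 and 5. The cause was not tested. No fold change of a named gene changed direction. With a replicate block on the animal number, 2 fell and 1 rose from P0 to P7, 2 and 0 from P0 to P3, and 0 and 0 from P3 to P7, as without it, although ENSOCUG00000021647 lost its call. The numbers name animals only, and the correlation of deviations of equally numbered animals was -0.08 to 0.20, so they were not taken as pairs. No paired analysis was possible for F29 against F25 and T31 against F29 because these groups share fewer than 2 animal numbers. The list of 150 kept 87 genes with TMM-scaled CPM, all but 1 with a pseudocount of 0.5, 105 without a minimum level and 123 to 136 with single T35, T37 or T42 libraries left out. Libraries of F20, F23, F28 and T31 were not left out. The median log2 fold change of the 150 genes was -0.23 to -0.07 from P0 to P7 and -0.19 to -0.09 from P0 to P3, each over 13 alternatives. It was 0.02 to 0.10 from F25 to F29. It changed sign from P3 to P7, where it was -0.08 to 0.05 (above 0 without a run term and with a replicate block), and from F29 to T31, where it was -0.03 to 0.07. ENSOCUG00000015621 kept its call under 13 of 13 alternatives, ENSOCUG00000025851 under 12 of 13 (lost without a run term) and ENSOCUG00000021647 under 7 of 13. Groups of 2 or 3 animals limit what could be called, and the single P7 library of run 3 has no replicate.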
